A study of Mus musculus with 12 samples.

Results

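The map described here is the list of N6-methyladenosine (m6A) peaks called in wild-type mouse testis, with the immunoprecipitated (IP) libraries set against the input libraries. All rows of the wild-type list were taken, which gave 33078 peaks of the 65355 in the series. The other 32277 peaks belong to Alkbh5-null testis and were not compared. Testes were collected at postnatal day 18, and each genotype had 3 IP and 3 input libraries, so 6 of the 12 libraries stand behind the wild-type list. RNA came from whole testis, poly(A) RNA was selected and fragmented, and the fragments were pulled down with an antibody against m6A before strand-marked libraries were made. The series asked how the m6A methylome changes in Alkbh5-null spermatocytes, and the wild-type males are its reference. The labels give no strain, and nothing in them says whether a library came from 1 animal or from several.

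m6A is an abundant modification inside messenger RNAs. A writer complex built around Mettl3 and Mettl14 places it, Alkbh5 and Fto remove it, and YTH domain proteins bind it and steer splicing, export, translation and decay of the transcript. It is known to gather in long exons and around stop codons, and loss of its writers, erasers or readers in mouse germ cells disturbs spermatogenesis. The antibody also binds N6,2'-O-dimethyladenosine, which can follow the cap when the transcript starts with an A, so a peak at a transcript start does not show which of these forms was pulled down. At day 18 the most advanced cells of the initial wave of spermatogenesis are spermatocytes or very early spermatids.

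The list gives 1 fold per peak, the authors' ratio of IP over input, and 1 false discovery rate (FDR). It holds no values per library. The spread between replicates and the depth of the libraries are therefore unknown, no test between IP and input could be run, and the 95% intervals below are Wilson intervals that cover counting error only. The median fold was 6.02 (quartiles 3.24 and 9.95, range 1.12 to 1350). The median span, from start to end and with introns included, was 360 bases (quartiles 180 and 864). Peaks with an FDR at or below 0.05 numbered 28201 (85.3%). An FDR at or below 1e-05, the stricter FDR in what follows, was met by 16973 peaks (51.3%). Of the 8361 folds between 6 and 10, 52.5% were whole multiples of 0.926 within 0.005, against 1.08% for folds without steps. The listed fold of such a peak need not be an exact ratio.

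Transcript starts were examined with RefSeq windows of GRCm38.p6, because no genome was at hand from which whole peaks could be read. Of 3974 peaks annotated to a 5' UTR, 3137 lay in genes with such a window. In 1202 genes a 5' UTR peak began within 50 bases of a RefSeq start. The starts below belong to 4 of these genes whose start peaks had high folds. They were picked to show both an A and a G as the first base, and a start with and without the letters GGAC nearby. Each has 15 bases before the start in lower case and 15 transcribed bases in capitals, 5′ to 3′ on the strand of the gene.
Gsk3b (chr16:38088986-38089015, plus strand): atcaccgagaaaggtACACGCCCAGCGGAG
Gtpbp2 (chr17:46161017-46161046, plus strand): aggggcgtggcctacAGTGGGCCACACCCC
Rchy1 (chr5:91963054-91963083, minus strand): gcggctcgcagcagcGCCCGCCAGACGACG
G6pc3 (chr11:102189684-102189713, plus strand): aggccgaggaagaaaGCCGGAGGAAACAGT

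Gsk3b, a kinase of Wnt signalling, had its only listed peak here, from 38089001 to 38090350 with a fold of 175. The peaks of Gtpbp2, a GTP-binding protein, and Rchy1, a ubiquitin ligase, had folds of 104 and 99.1. The Rchy1 peak (91962529 to 91963068, log10 FDR -204) lies inside a peak of Thap6 on the other strand (91962449 to 91963105, fold 87.4, log10 FDR -201), so which gene the enrichment belongs to cannot be told. G6pc3, a glucose-6-phosphatase subunit, had a start peak with a fold of 55.5. Gsk3b and Gtpbp2 start with an A in RefSeq, and Rchy1 and G6pc3 with a G. Over 1255 coding windows touched by a start peak, 31.1% (28.6 to 33.7) had an A as the first base. The share was 30.0% (28.2 to 31.8) in 2396 windows of genes whose 5' UTR peaks began elsewhere, and 30.5% (29.6 to 31.5) in 9267 windows of genes with peaks in other classes alone. The shares of the 3 kinds of gene with a peak lay within each other's intervals. Coding genes without any peak stood apart, with an initial A in 48.0% (46.9 to 49.0) of 8345 windows. Over all coding windows the share was 37.4%. Receptor families were not set aside here, and only 31 of 1106 odorant and 4 of 353 vomeronasal receptor genes had a peak. Their part in the shares of genes without a peak, here and for the motifs below, was not tested. GGAC, the core of the common m6A motif, was searched on the transcribed strand in the 50 bases after the start. It occurred in 21.9% (19.7 to 24.3) of windows with a start peak, 20.7% of those with 5' UTR peaks elsewhere, 20.6% of those with other peaks, 18.8% of those without a peak and 20% of all coding windows. The looser 5-base consensus (any base but C, then A or G, then AC, then any base but G) went the other way. It occurred in 45% (42.3 to 47.8) of windows with a start peak, 45.5% of those with 5' UTR peaks elsewhere, 45% of those with other peaks, 58.7% (57.7 to 59.8) of those without a peak and 50.4% of all coding windows. GGAC is in the first 50 bases of G6pc3 and not in those of the other 3 genes shown.

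MicroRNA hairpins inside peaks were looked up in the same RefSeq build. Of 1005 hairpins, 39 lay wholly inside a peak on the same strand, and 20 of these inside a peak of at most 2000 bases. The 39 were counted in 3' UTR peaks (17), 5' UTR peaks (11), noncoding exons (8) and coding exons (4), with Mir671 in 2 of these classes. Mir671 in Chpf2 lay in a 3' UTR peak of 1226 bases with a fold of 19 and a log10 FDR of -121. A peak in the 5' UTR of Dgcr8 is shown for the role of its gene, which encodes the RNA-binding partner of Drosha in the cleavage of microRNA precursors. The peak on chromosome 16 (18283970 to 18284659, minus strand, fold 3.69, log10 FDR -41.6) covered 2 hairpins, those of miR-1306 and miR-3618. The mature sequences of these, and of the microRNAs in the peak of Mir142hg and in that of Mir215, are given 5′ to 3′ with the seed (bases 2 to 8) in capitals.
miR-1306-5p: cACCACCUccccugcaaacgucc
miR-1306-3p: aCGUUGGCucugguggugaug
miR-3618-5p: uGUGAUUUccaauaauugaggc
miR-3618-3p: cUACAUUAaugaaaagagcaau
miR-142a-5p: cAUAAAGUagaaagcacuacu
miR-142a-3p: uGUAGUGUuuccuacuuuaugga
miR-194-5p: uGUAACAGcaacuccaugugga
miR-194-1-3p: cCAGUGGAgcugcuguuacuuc

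No seed is shared among these 8. The Mir142hg peak (chromosome 11, 87755577 to 87757270) had a fold of 10.2 and a log10 FDR of -3.59. The Mir215 peak that covers the Mir194-1 hairpin (chromosome 1, 185312187 to 185313654) had a fold of 7.41 and a log10 FDR of -5.01. These peaks lie on the poly(A) RNA of the host transcripts, and the mature microRNAs were not measured.

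Peaks were most frequent in 3' UTRs. The 3' UTR class held 16171 peaks (48.9%, 48.3 to 49.4) in 10832 genes. Coding exons held 5879 peaks (17.8%, 17.4 to 18.2), noncoding exons 5492 (16.6%, 16.2 to 17.0), 5' UTRs 3974 (12%, 11.7 to 12.4) and introns 1347 (4.07%, 3.86 to 4.29). A further 134 peaks had no gene, and 81 had a gene but no class. The authors' annotation has no class for the stop codon, so a peak across it is counted in 1 of its neighbours. Each peak has at most 1 class whatever its span, and some 3' UTR peaks lie far from the end of their gene. A class is thus the authors' label and not an exact position.

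The make-up of the map changed with the strength of the evidence. Among the 9634 peaks with an FDR at or below 1e-20, 3' UTRs held 65.1% (64.1 to 66.0) and introns 0.716% (0.566 to 0.905). Among the 4877 peaks with an FDR above 0.05, 3' UTRs held 33.8% (32.5 to 35.1) and introns 8.22% (7.48 to 9.03). Noncoding exons held 6.54% of the peaks at or below 1e-20 and 27.2% of those above an FDR of 0.05. Coding exons differed least in proportion, with 18.4% at or below 1e-20 and 16.1% above 0.05. In the same terms, 61.6% of 3' UTR peaks passed the stricter FDR, against 52.9% of coding, 45.3% of 5' UTR, 31.4% of noncoding and 23.8% of intron peaks.

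**Figure D1:**
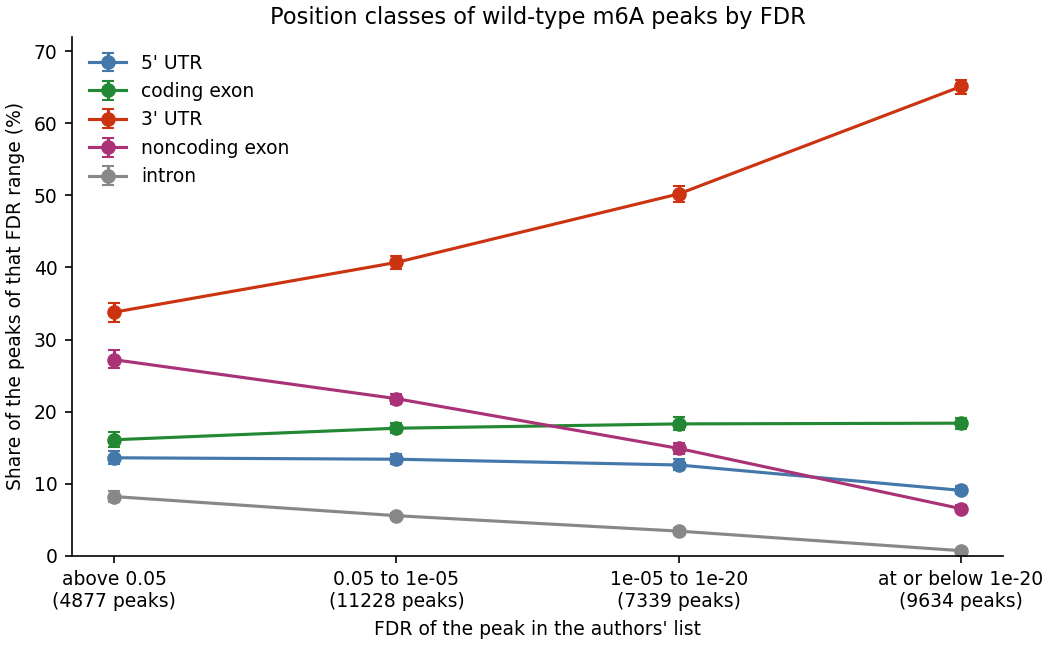
Share of peaks (y axis, percent) in each position class for 4 ranges of the authors' FDR (x axis, weakest evidence at the left), with Wilson 95% intervals. The 3' UTR line climbs to 65.1% at an FDR at or below 1e-20, while the noncoding and intron lines fall to 6.54% and 0.716%.

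The fold differed little between classes at the median. It was 5.78 in 3' UTRs, 5.18 in coding exons, 5.86 in 5' UTRs, 6.79 in noncoding exons and 6.25 in introns. The 2 classes with the weakest FDR thus had the highest median folds. They also held the most stepped folds: 77.8% of intron folds and 71.9% of noncoding folds between 6 and 10 were on the step, against 39.8% in 3' UTRs. Of the noncoding peaks, 88.5% lay in genes with clone-type names (Gm numbers, RIKEN clones and the like), and 17.5% overlapped a peak on the opposite strand, against 9.22% of all peaks. The part that stepped folds and opposite-strand transcripts have in the noncoding and intron folds was not tested.

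The span separated the classes more than the fold did. Coding peaks were the longest at the median (449 bases) and intron peaks the shortest (210 bases), with 361 bases in 3' UTRs and 359 bases in 5' UTRs. Spans over 1000 bases were listed for 29.5% of 5' UTR peaks, 26.8% of coding peaks, 21.3% of 3' UTR peaks and 4.01% of intron peaks. The longest spans cross introns. Schip1, a protein that binds schwannomin, had a 5' UTR peak that spans 439326 bases of a gene of 561680 bases. Tshz2, a zinc finger homeobox protein, had a peak of 250705 bases. Naaladl2, a member of the glutamate carboxypeptidase family, had one of 231731 bases. Arl15, a small GTPase, and Bcl2, an inhibitor of apoptosis, followed with 187777 and 168796 bases. These spans run over spliced-out sequence and are not lengths of methylated RNA.

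**Figure D2:**
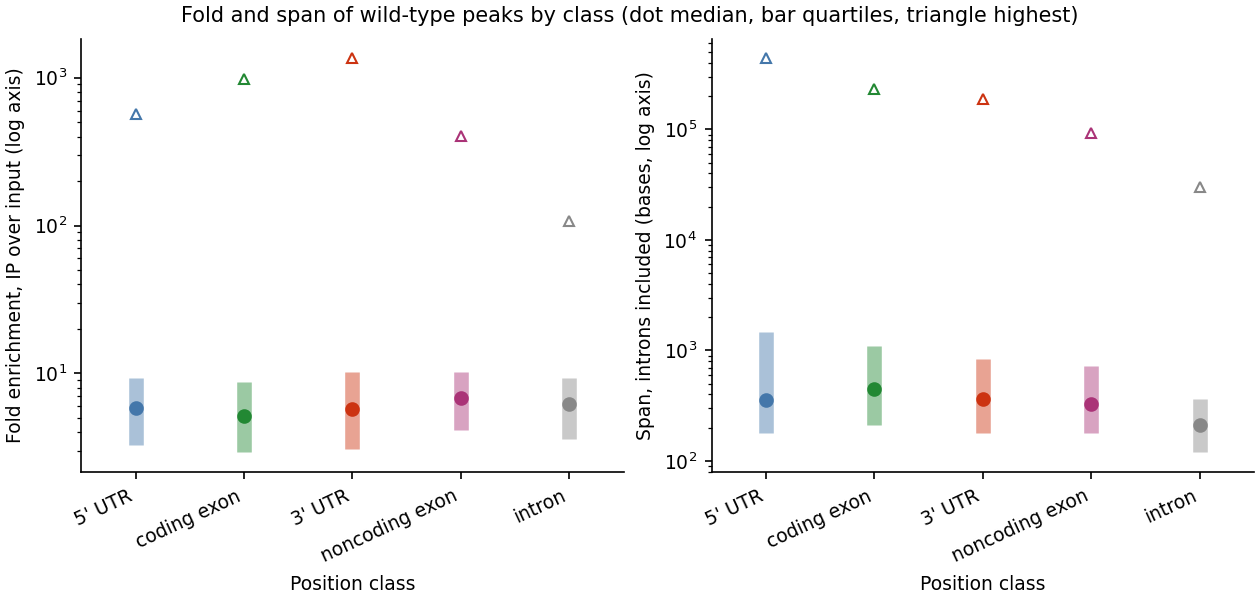
Fold of IP over input (left, log axis) and span in bases (right, log axis) for the 5 position classes. Dots are medians, bars run between the quartiles and open triangles mark the highest value. The medians of the fold lie between 5.18 and 6.79, and those of the span between 210 and 449 bases.

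The peaks were spread over 16367 genes. A single peak was listed in 7823 genes (47.8%), 2 peaks in 4432 (27.1%), 3 in 2134 (13.0%) and 4 in 1072 (6.55%). The 906 genes with 5 or more peaks made up 5.54% of the genes and held 16.9% of the peaks. The mean was 2.01 peaks per gene. Some of this comes from neighbouring or repeated rows: with peaks of a gene within 200 bases merged, the mean was 1.73, 55.3% of genes had 1 peak and the highest number was 20 in place of 27. Overlap with an earlier row of the same gene and strand was found for 825 peaks (2.49%). The order of rows passes through the chromosomes a second time near the end of the list, and of the 931 peaks there 43.8% were such repeats.

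Longer genes carried more peaks, and more of them in coding exons. Among genes without clone-type names, 65.8% (63.6 to 67.9) of the 1837 genes that span over 100000 bases had 2 or more peaks, against 30.2% (26.1 to 34.7) of the 434 genes that span up to 2000 bases. The mean was 2.63 peaks in the longest and 1.39 in the shortest genes. A coding peak was listed in 37.5% (35.3 to 39.7) of the longest and 16.6% (13.4 to 20.4) of the shortest genes. The 3' UTR share differed less above 2000 bases, between 79.6% and 85.1% in the remaining ranges. The span of a gene includes introns and is not the length of its RNA, which was not analysed here.

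**Figure D3:**
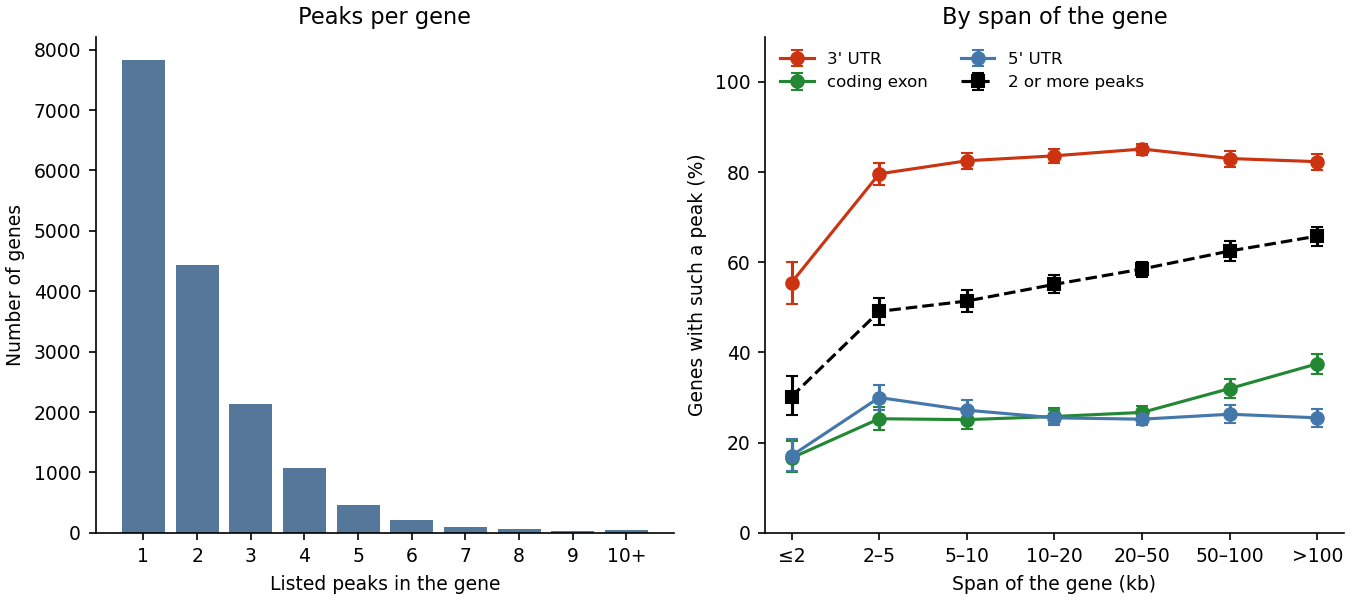
Left, number of genes (y axis) by number of listed peaks (x axis). Right, percent of genes (y axis) with a 3' UTR, coding or 5' UTR peak and with 2 or more peaks, by span of the gene in kilobases (x axis, genes without clone-type names), with Wilson 95% intervals. The dashed line of genes with 2 or more peaks climbs between the shortest genes (30.2%) and the longest (65.8%), and the 3' UTR line stays between 79.6% and 85.1% above the shortest range.

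Most messenger RNAs were marked at a single kind of position. Of 12665 genes with a 5' UTR, coding or 3' UTR peak, 6494 (51.3%, 50.4 to 52.1) had 3' UTR peaks alone, 891 (7.04%) coding peaks alone and 671 (5.30%) 5' UTR peaks alone. The most frequent pairs were coding exon with 3' UTR (1892 genes, 14.9%) and 5' UTR with 3' UTR (1751 genes, 13.8%). All 3 classes were marked in 695 genes (5.49%), with a mean of 4.61 peaks. More than 1 class was marked in 4609 genes (36.4%, 35.6 to 37.2), a share that was 24.4% at the stricter FDR.

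Where a gene had peaks in several classes, its highest fold lay more often in the 3' UTR. In 2587 genes with both, the highest 3' UTR fold exceeded the highest coding fold in 62.0% (60.1 to 63.8), with medians of 8.33 and 6.12. In 2446 genes with both, it exceeded the highest 5' UTR fold in 55.9% (54.0 to 57.9), with medians of 7.30 and 6.48. With the stricter FDR these shares were 61.2% (58.6 to 63.7) of 1375 genes and 52.7% (49.6 to 55.7) of 1018 genes. The interval of the 5' UTR comparison then included equal shares.

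The gene with the most peaks was Galnt2l, by its name related to a polypeptide N-acetylgalactosaminyltransferase, with 27. All 27 were annotated as intronic, and 21 of them lay inside 11 other RefSeq genes, since the annotated span of Galnt2l on chromosome 8 is 4434882 bases. Those peaks cannot be assigned to 1 gene by position. Kcnq1ot1, the long noncoding RNA of the imprinted Kcnq1 domain, had 22 peaks on chromosome 7 (minus strand). The folds of the Kcnq1ot1 peaks ran between 2.16 and 27.8, and 8 of the 22 passed the stricter FDR. The strongest lay from 143257951 to 143259511, and 15 of the 22 sat close together between 143217494 and 143229670. Neat1, the long noncoding RNA that builds paraspeckles, had 7 rows, all at the stricter FDR, with folds between 3.12 and 11.1. Of these, 4 overlap an earlier row, and the 7 merge to 3.

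Among protein-coding genes with many peaks, coding exons dominated. Pclo, a scaffold of the presynaptic active zone, had 22 peaks, 21 of them coding, with folds between 2.59 and 17.6. None of the Pclo peaks passed the stricter FDR, and its lowest log10 FDR was -3.99. Ahnak, a very large scaffold protein, had 20 peaks (17 coding), of which 12 passed. Zfhx4 and Zfhx2, zinc finger homeobox factors, had 18 and 17 peaks with 14 and 15 coding, and 7 and 5 passed. Some Zfhx2 peaks, among them its strongest with a fold of 10.2, overlap peaks of Zfhx2os on the other strand. Bsn, a partner of Pclo at the active zone, had 13 peaks, 12 of them coding, and 1 passed. Among the genes with the most peaks, Fat1, an atypical cadherin, had all of its 12 peaks at the stricter FDR, 10 of them coding.

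Other genes carried their peaks in the 3' UTR class. Stard9, a kinesin of the mitotic spindle, had 12 of its 13 peaks annotated there, with 11 at the stricter FDR. Its highest fold was 51.8, in a peak that overlaps one of Ttbk2 on the other strand with a fold of 47.2. Some of these Stard9 peaks, such as that from 120696214 to 120696963, lie far from the end of the gene at 120731895. Gm8995 instead had 15 noncoding peaks, of which 10 came in the second pass of the list through the chromosomes, and merging left 7. Trim66, a bromodomain protein, had 9 peaks, all in the 3' UTR, and 0 at the stricter FDR. Dcun1d3, a regulator of cullin neddylation, had 5 of its 6 rows in the 5' UTR. These hold 2 overlapping pairs, and none of the 5 passed the stricter FDR.

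**Figure D4:**
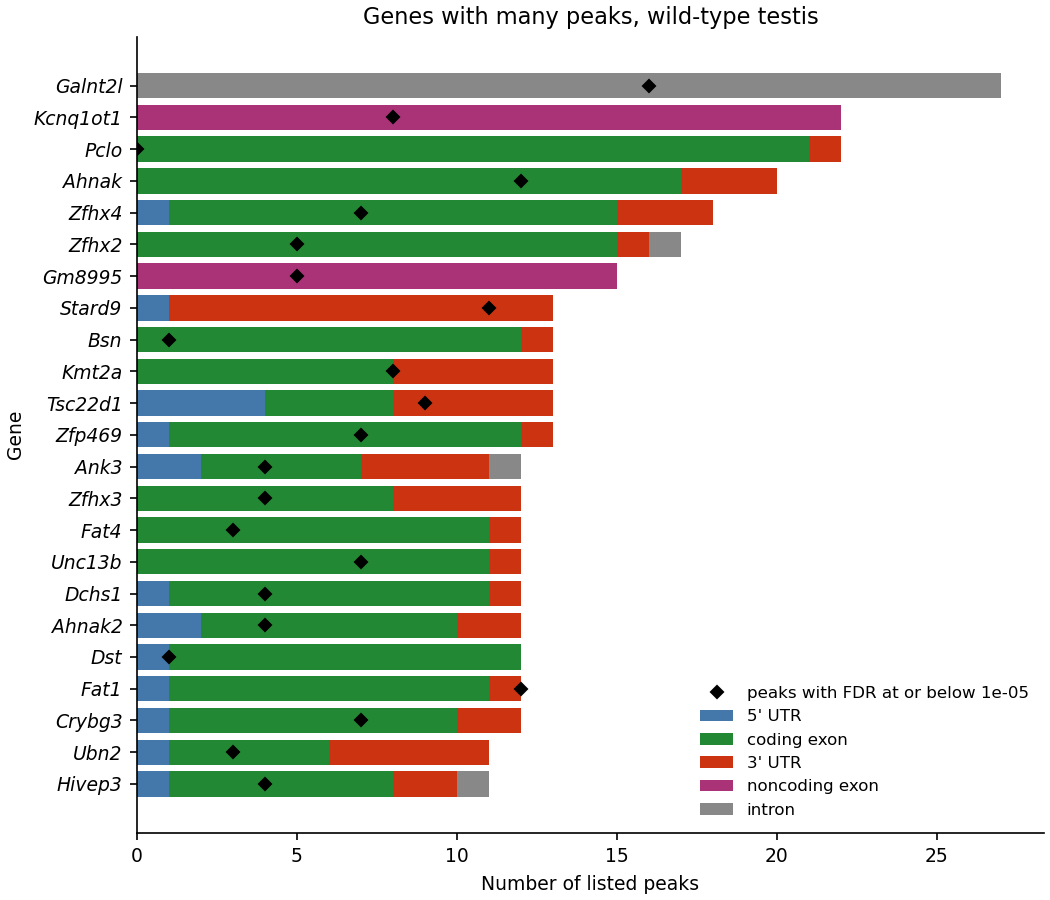
Number of listed peaks (x axis) in 23 genes with many peaks (y axis), stacked by position class. Black diamonds mark how many peaks of the gene passed an FDR of 1e-05. Coding exons fill most bars, Galnt2l and Kcnq1ot1 are intronic and noncoding throughout, and the diamond of Pclo stands at 0.

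Of the 5 highest folds, 4 lay in 3' UTRs. Dhx9, an RNA helicase, had 1 listed peak, in its 3' UTR (chromosome 1, 153455758 to 153457612), with a fold of 1350. Rrbp1, the ribosome-binding protein of the endoplasmic reticulum, had a coding peak of fold 978 (chromosome 2, 143988222 to 143990171), beside 3 peaks with folds of 11.4, 3.24 and 2.10. Fam98b, a subunit of the tRNA ligase complex, reached 801 in its 3' UTR and 2.35 in its 5' UTR. Fbxl19, a CpG-island binding protein, reached 633, and Ube2s, a ubiquitin-conjugating enzyme of the anaphase-promoting complex, reached 579, both in the 3' UTR. The spread within a gene was thus wide, with a strong peak next to weak ones in 4 of these 5 genes.

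Very high folds were also listed in 5' UTRs. Wdr66, a protein of the axoneme, reached 564 (chromosome 5, 123252102 to 123256040). Syncrip, an RNA-binding protein, reached 549, and Capns1, the small subunit of calpain, 443. The Capns1 peak overlaps a peak of Gm26810 on the other strand with a fold of 21.3. Inha, the alpha subunit of inhibin made by Sertoli cells, had its only peak in the 5' UTR, 207 bases long with a fold of 126. In noncoding exons outside clone-type names, the highest fold was 87.4, in the Thap6 peak that covers the Rchy1 start peak on the other strand, and in introns 107, in Kcnk10, a potassium channel. Apart from Kcnk10, the 5 highest intron folds lay in Rita1 (69.4), Med16 (67.6), Pikfyve (55.5) and Sbno1 (48.1). The Sbno1 peak overlaps a peak of Gm37415 on the other strand with a fold of 47.2, and the Rita1 peak one of Iqcd with a fold of 8.94. How many input reads lay under each of these peaks was not analysed here.

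To see which genes were marked, peaks were set against 21887 RefSeq protein-coding genes, of which 12703 (58.0%, 57.4 to 58.7) had a listed peak and 9387 (42.9%) a peak at the stricter FDR. Marked coding genes had a mean of 2.14 peaks and a median highest fold of 8.33, and 83.9% of them had a 3' UTR, 29% a coding and 26.2% a 5' UTR peak. A gene without RNA in the tissue cannot have a peak, and RNA levels were not analysed here. The share of a list with a peak therefore joins expression and methylation, and fewer cells of a type cannot be told apart from less RNA per cell.

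The machinery of m6A was itself marked. Of 12 writers and cofactors, 11 had a peak, all 11 at the stricter FDR and all 11 with a 3' UTR peak. Both shares were 91.7% (64.6 to 98.5), against 58.0% with any peak and 42.9% at the stricter FDR for all coding genes. Mettl3, the catalytic subunit, was the member without one. Mettl14, its partner in the catalytic pair, had 2 peaks with folds of 1.70 and 2.79 in the 3' UTR. Zc3h13, which holds the complex in the nucleus, had 4 peaks on chromosome 14, the strongest from 75324422 to 75330916 in coding exons with a fold of 13.8. Rbm15, an RNA-binding adaptor, had 6 peaks spread over all 3 classes, with a fold of 23.5 in its long coding exon (chromosome 3, 107330142 to 107332685). Rbm15b, its paralogue, reached 26.8 from 106884054 to 106886174 on chromosome 9, and a coding peak of fold 18.8 lies within that span. Virma and Wtap, scaffold and adaptor subunits, had 4 and 2 peaks with highest folds of 12.9 and 9.93. Cbll1, a ring finger subunit, had 1, with a fold of 18.1, which overlaps a peak of Gm29542 on the other strand with the same fold.

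Most erasers and readers also had a peak. Of 9 members of the eraser and AlkB list, 8 had a peak and 7 a peak at the stricter FDR, with a median highest fold of 4.93. The share with a peak was 88.9% (56.5 to 98.0), an interval that includes the 58.0% of all coding genes. At the stricter FDR the share was 77.8% (45.3 to 93.7), against 42.9%. Alkbh5 had 3 peaks, 1 in each class, with folds of 7.22 in the 5' UTR, 3.77 in the 3' UTR and 3.19 in a coding exon. Fto, the other m6A eraser, had a 5' UTR peak of fold 2.03 and a coding peak of fold 4.74. Of 15 readers, 13 had a peak (86.7%, 62.1 to 96.3), against 58.0% of all coding genes. That interval includes the 62.2% of coding genes left when receptor and defensin families are set aside. At the stricter FDR 10 had a peak (66.7%, 41.7 to 84.8), an interval that includes the 42.9% of all coding genes. Hnrnpc and Igf2bp2 had none. The 3 cytoplasmic YTHDF readers all had peaks annotated to the 3' UTR. The highest folds were 5.71 in Ythdf1, 11.9 in Ythdf2 and 12.8 in Ythdf3. The spans of these peaks were 6513, 19097 and 11144 bases with introns included. Their folds therefore do not place the mark within the 3' UTR. Ythdc1, the nuclear YTH reader, had 5 peaks, the strongest in coding exons (chromosome 5, 86828099 to 86829595, fold 15.2). Ythdc2, needed for meiotic progression, had a single 5' UTR peak of fold 7.41 with a log10 FDR of -2.28. Prrc2a, a reader described in other tissues, had 2 coding peaks of up to 30.8.

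Germ cell genes were grouped by stage, and no difference between stages was tested. All 18 genes of the meiotic entry list had a peak, 12 of them at the stricter FDR, against 58.0% and 42.9% of all coding genes. Mga, a scaffold of the repressor complex that holds meiotic genes off, had 8 peaks, 6 of them coding, with folds up to 20.4. Rara, a retinoic acid receptor, had 5 peaks with folds up to 9.07. Stra8, the transcription factor induced by retinoic acid at meiotic entry, had a 3' UTR peak on chromosome 6 (34939167 to 34939344, fold 5.20) and a 5' UTR peak of fold 1.57. Rec8, the meiotic cohesin, had 2 peaks with a highest fold of 27.3. Tet1, a 5-methylcytosine dioxygenase, had 4 peaks with a highest fold of 19.4 and none at the stricter FDR.

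Synaptonemal complex and axis genes were marked with low folds. Of 17 members 12 had a peak and 11 a peak at the stricter FDR. The shares of 70.6% (46.9 to 86.7) and 64.7% (41.3 to 82.7) had intervals that include the 58.0% and 42.9% of all coding genes. The median highest fold of the members with a peak was 2.58, against 8.33 over all coding genes with a peak. Sycp1, which forms the transverse filaments, had 3 coding peaks with folds of 2.38, 1.84 and 1.21. The log10 FDR of these Sycp1 peaks was -158, -45.5 and -4.55, so small ratios went with strong evidence. Sycp2, Syce1, Smc1b and Smc3 had highest folds between 1.66 and 2.65. The highest folds of the list were 26.8 in the 5' UTR of Syce2, a central element protein, and 10.7 in the 5' UTR of 4930447C04Rik. Sgo2a, a protector of centromeric cohesin, had a coding peak of fold 9.10, which overlaps a peak of Kctd18 on the other strand with a fold of 9.20. Hormad1, Hormad2, Stag3, Rad21l and Tex12 had no listed peak.

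Meiotic recombination genes were marked in 27 of 33 cases (81.8%, 65.6 to 91.4), against 58.0% of all coding genes. At the stricter FDR 17 were marked (51.5%, 35.2 to 67.5), an interval that includes the 42.9% of all coding genes. Brca2, which loads recombinases on broken DNA, had 10 listed peaks, 8 of them coding, and the strongest lay from 150540872 to 150542550 on chromosome 5 with a fold of 8.62. Its 3' UTR rows, from 150569178 to 150569591 and to 150569597, are nearly the same peak listed again. Fancm, a helicase of DNA repair, had 5 peaks, all annotated to the 3' UTR, with folds up to 19.8. The strongest Fancm peak, from 65105968 to 65106778, lies far from the end of the gene at 65132058. The class of that peak is therefore uncertain. Blm, the Bloom helicase, reached a fold of 35.0 and had 3 peaks at the stricter FDR. Atr, a checkpoint kinase, had 3 peaks in introns and 0 at the stricter FDR. Spo11, which makes the meiotic breaks, had 1 peak of fold 2.72, and Prdm9, which places them, 3 peaks of up to 7.51 in the 3' UTR.

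The piRNA pathway stood near the background. Peaks were listed in 13 of 23 members (56.5%, 36.8 to 74.4). Tdrd6, a Tudor protein of the chromatoid body, had 6 coding peaks, all at the stricter FDR, with folds up to 7.34. Tdrkh, a Tudor protein of piRNA trimming, had 4 peaks in the 3' UTR with a highest fold of 29.6. Its peaks of fold 9.63 and 6.11 overlap peaks of Oaz3 on the other strand with folds of 4.72 and 8.19. Pld6, a mitochondrial nuclease, reached 20.3, and Mov10l1, a helicase of piRNA processing, 14.5, both in the 3' UTR. The Piwi proteins Piwil2 and Piwil4 and the helicase Ddx4 had no listed peak, and Piwil1 had 1 of fold 2.94.

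The round spermatid list had the lowest share with a peak among the germ line lists, with an interval that overlapped that of the piRNA list. Of 24 round spermatid and nuclear condensation genes, 9 (37.5%, 21.2 to 57.3) had a peak. The 9 include the sperm kinases Tssk1, Tssk2, Tssk3 and Tssk6, with highest folds between 9.42 and 13.9. Prm1, Prm2, Tnp1 and Tnp2, which package sperm DNA, had none. Flagellum genes were marked in 18 of 25 cases (72%, 52.4 to 85.7), an interval that includes the 58.0% of all coding genes, with 8 coding peaks in Fsip2, a protein of the fibrous sheath, and folds there up to 13.0. Among pachytene regulators 15 of 21 had a peak (71.4%, 50.0 to 86.2), which likewise includes the background. Eif4g3, a translation factor, had 3 with folds up to 13.1, and Pgk2, the germ cell phosphoglycerate kinase, had a 3' UTR peak of fold 9.61.

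Cell type markers were read to check the tissue label. Peaks were listed for 7 of 8 spermatocyte markers, 5 of 7 spermatogonial markers, 6 of 6 Sertoli cell markers, 4 of 6 Leydig cell markers and 2 of 7 markers of peritubular, endothelial and immune cells. None of the 6 round spermatid markers had a peak. At the stricter FDR the counts were 6 of 8 spermatocyte, 3 of 7 spermatogonial, 5 of 6 Sertoli and 4 of 6 Leydig markers. With 58.0% of all coding genes marked, these small counts describe the tissue and do not set it apart. A missing peak does not show a missing transcript.

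Somatic genes carried peaks of their own. In the longer Sertoli list 23 of 25 had a peak. Sox9, a transcription factor that drives Sertoli cell fate, had 4 peaks in the 3' UTR, the strongest with a fold of 39.5. Inhba, an inhibin beta subunit, had 4 peaks of up to 32.4. Of 12 Leydig cell genes 9 had a peak (75%, 46.8 to 91.1), an interval that includes the 58.0% of all coding genes. Lhcgr, the receptor for luteinizing hormone, had 6 rows in the 3' UTR that merge to 2, and Cyp11a1, the side-chain cleavage enzyme, had 5 rows with folds up to 24.1, of which 2 overlap an earlier row. Spermatogonial genes were marked in 14 of 18 cases (77.8%, 54.8 to 91.0), which likewise includes the 58.0%. Kit, Ret, Sohlh2 and Pou5f1 had no listed peak. Zbtb16, a transcription factor of undifferentiated spermatogonia, had 3 peaks with a highest fold of 14.8, and Foxo1, a forkhead factor of stem cell maintenance, had 2 with a highest fold of 17.3. Of 12 peritubular, endothelial and immune genes 6 had a peak (50%, 25.4 to 74.6), and this interval also includes the 58.0%. All 6 had it in the 3' UTR, among them Kdr, a receptor for vascular endothelial growth factor, with a fold of 9.33.

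Chromatin regulators were marked often and many times over. Of 40 members 35 (87.5%, 73.9 to 94.5) had a peak, against 58.0% of all coding genes. At the stricter FDR 34 had a peak (85%, 70.9 to 92.9), against 42.9%. The marked members had a mean of 3.86 peaks, and 65.7% of them had a coding peak. Over all marked coding genes these values were 2.14 and 29%. Kmt2a and Kmt2d, histone H3K4 methyltransferases, had 13 and 10 peaks. Each of the 10 Kmt2d peaks passed the stricter FDR, and 7 were coding, the strongest from 98849402 to 98850901 on chromosome 15 with a fold of 15.9. Setd1a, of the same enzyme class, had 9 rows, 3 of which overlap an earlier row, with a highest fold of 95.8 in a coding exon, and Kdm4a, a histone demethylase, reached 71.3 in its 3' UTR. Dnmt1, Dnmt3b, Hdac2, Trim28 and Uhrf1 had no listed peak.

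Very large genes had the highest mean of the lists, 5.50 peaks in the 22 of 24 members with any. The share with a peak was 91.7% (74.2 to 97.7), against 58.0% of all coding genes. At the stricter FDR it was 87.5% (69.0 to 95.7), against 42.9%. Coding exons were marked in 77.3% of the 22. Dst and Macf1, giant linkers of the cytoskeleton, had 12 and 11 peaks, of which 1 and 6 passed the stricter FDR. Syne1, a nuclear envelope spectrin, had 5 with folds up to 24.1. Ttn, which encodes titin, had 8 peaks with 1 at the stricter FDR. In genes of mRNA decay and poly(A) tails, 25 of 32 members had a peak (78.1%, 61.2 to 89.0), against 58.0% of all coding genes. The interval includes the 62.2% left when receptor and defensin families are set aside. At the stricter FDR the share was 65.6% (48.3 to 79.6), against 42.9% of all coding genes. Edc3, a decapping enhancer, had 6, of which 2 overlap peaks of Clk3 on the other strand, and Dcp1a, a decapping cofactor, reached a fold of 15.0.

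Cytosolic ribosomal genes were marked less often than other coding genes, and several housekeeping groups had low folds. Cytosolic ribosomal proteins were marked in 24 of 81 cases (29.6%, 20.8 to 40.3), with a median highest fold of 2.92 and a mean of 1.12 peaks. Respiratory chain subunits were marked in 41 of 86 (47.7%, 37.4 to 58.1, an interval that includes the background) with a median highest fold of 2.54. Among the ribosomal genes Rps28 reached 12.2, and among the respiratory genes Ndufa9, a subunit of complex I, reached 17.6. Glycolysis and housekeeping genes were marked in 15 of 24 cases (62.5%, 42.7 to 78.8), with a median highest fold of 3.09. Gapdh, a glycolytic dehydrogenase, had 2 peaks with folds of 8.33 and 4.00. The first, in the 5' UTR, had a log10 FDR of -0.820 and did not pass the stricter FDR. The second, in the 3' UTR, had a log10 FDR of -50.5. The mitochondrial ribosomal proteins, encoded in the nucleus, stood apart from the cytosolic ones, with peaks in 65 of 78 (83.3%, 73.5 to 90.0) and a median highest fold of 5.61.

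**Figure D5:**
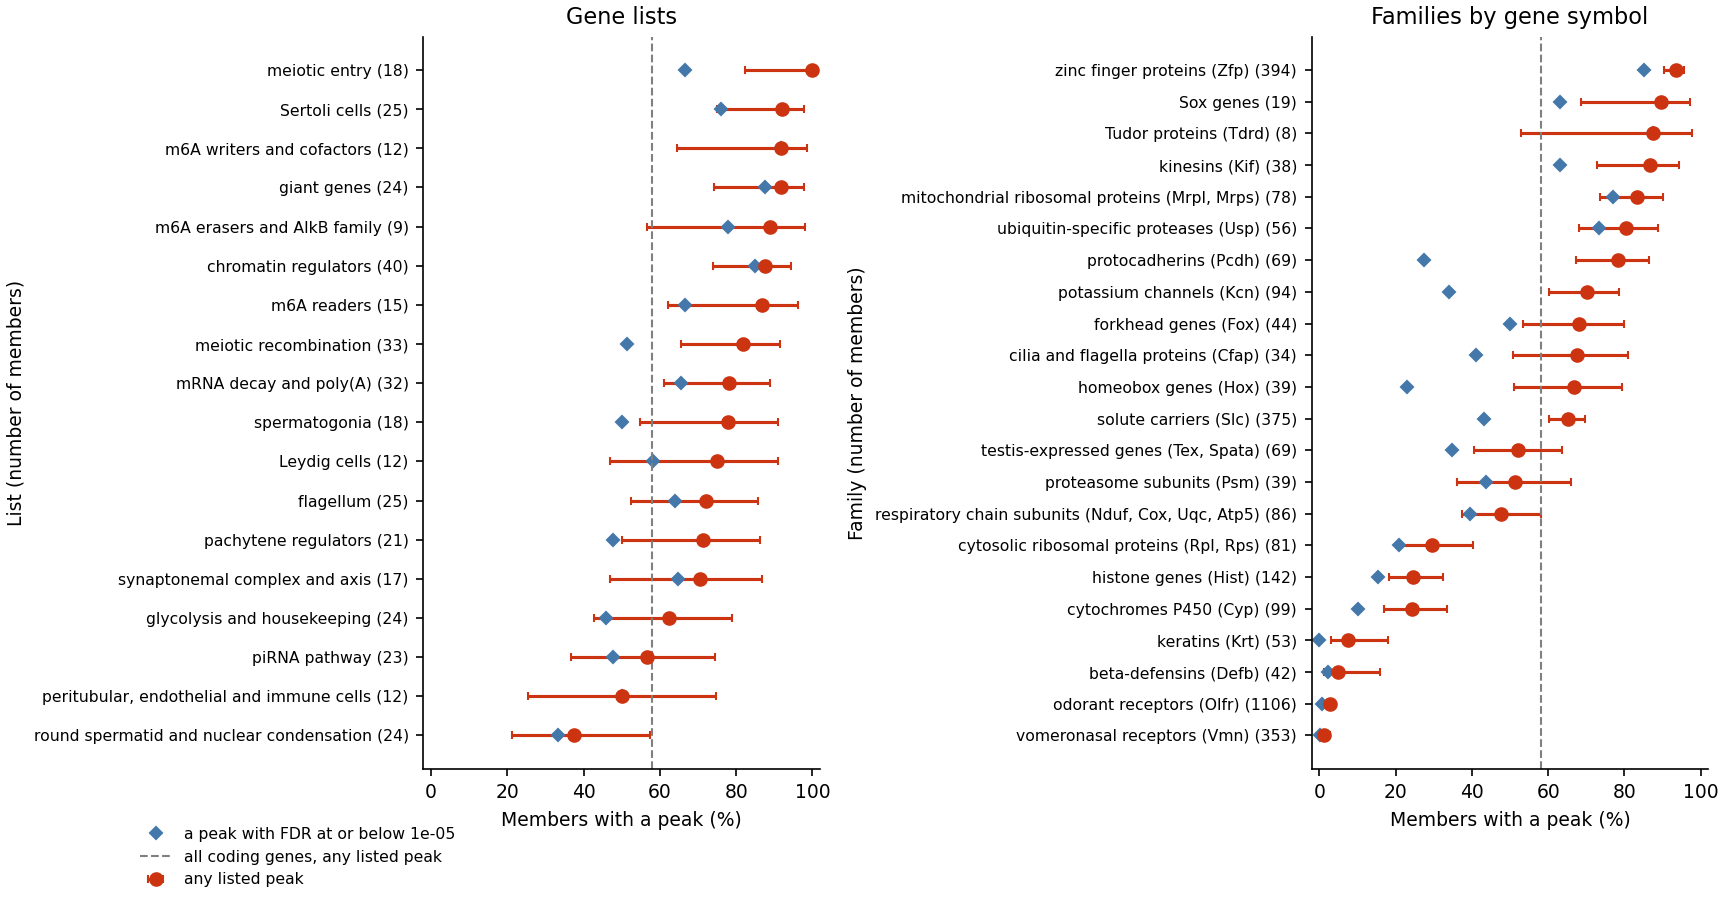
Percent of members with a peak (x axis) in 18 gene lists (left) and 22 families defined by gene symbol (right), with the number of members in brackets. Red dots with Wilson 95% intervals count any listed peak, blue diamonds count peaks at the stricter FDR, and the dashed line marks the 58.0% of all coding genes. Zinc finger genes and meiotic entry genes lie far to the right of the line, and cytosolic ribosomal, keratin and receptor genes far to the left.

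Zinc finger genes had the highest share with a peak of the 22 families, with an interval that overlapped those of smaller families such as the 19 Sox genes. Of 394 genes with Zfp names, 368 (93.4%, 90.5 to 95.5) had a peak and 335 (85.0%) a peak at the stricter FDR, against 58.0% and 42.9% of all coding genes. They had a mean of 2.94 peaks and a median highest fold of 12.9. A coding peak was listed in 54.2% of the marked family members, against 29% of all marked coding genes. Zinc finger arrays of this kind are usually encoded in a single long last exon. Zfp469 had 13 peaks, 11 of them coding, Zfp865 reached a fold of 112 in a coding exon, and the single 3' UTR peak of Zfp579 had a fold of 125.

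Protocadherins, adhesion proteins whose clusters share exons, carried their peaks mostly in coding exons. Of 69 members 54 (78.3%) had a peak, and of these 94.4% had a coding and 18.5% a 3' UTR peak. A peak at the stricter FDR was listed for 27.5% of members, below the 42.9% of all coding genes. Reads of near-identical or shared protocadherin exons could be split by the authors' counting, so single members are uncertain. The same could hold for the family with histone-type symbols, of which 35 of 142 (24.6%) had a peak. Picked by symbol alone, this family may also hold genes that do not encode histones. Kinesins (86.8%), ubiquitin-specific proteases (80.4%) and Sox factors (89.5%) were marked often. Odorant receptors (31 of 1106, 2.80%), vomeronasal receptors (4 of 353, 1.13%) and keratins (4 of 53, 7.55%) were marked rarely, as were beta-defensins (2 of 42, 4.76%) and cytochromes P450 (24 of 99, 24.2%). Solute carriers (65.1%, 60.1 to 69.7) and potassium channels (70.2%, 60.3 to 78.5) had intervals above 58.0%, but both intervals include the 62.2% of coding genes left when receptor and defensin families are set aside. At the stricter FDR, solute carriers stood at 43.2% (38.3 to 48.3), which includes the 42.9% of all coding genes. The intervals of Hox genes (66.7%), forkhead genes (68.2%) and Cfap proteins of cilia (67.6%) included 58.0%. The share at the stricter FDR was 23.1% (12.6 to 38.3) in Hox genes, below the 42.9% of all coding genes, and 34% (25.3 to 44.1) in potassium channels, an interval that includes it. Of the 8 Tudor proteins 7 had a peak (87.5%, 52.9 to 97.8). Peaks were listed for 36 of 69 genes with Tex or Spata names (52.2%, 40.6 to 63.5) and 20 of 39 proteasome subunits (51.3%, 36.2 to 66.1). Each of these intervals includes the 58.0% of all coding genes. None of the marked proteasome genes had a coding peak.

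The KEGG column named a pathway for 4704 genes, which had a mean of 2.03 peaks. Of 210 pathways with at least 30 genes in the list, Lysine degradation had the highest mean, 3.27 peaks over 49 genes. That term holds histone lysine methyltransferases, and its members with the most peaks were Kmt2a, Kmt2d, Ash1l and Setd1a with 13, 10, 10 and 9. Homologous recombination (33 genes) had a mean of 2.48 and the Fanconi anemia pathway (48 genes) of 2.52, with Brca2 and Brca1 in both. Oxidative phosphorylation (64 genes, mean 1.36, median highest fold 3.49) and Ribosome (60 genes, mean 1.38, median highest fold 3.70) had the lowest means. The Ribosome term mixes cytosolic and mitochondrial ribosomal proteins, and its gene with the most peaks was Mrpl33 with 7 rows, of which 2 overlap an earlier row. Coding peaks were listed in 5.00% of the Ribosome genes, against 26.2% of all genes with a pathway.

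The largest share of genes with a coding peak, 47.3%, was found under Herpes simplex virus 1 infection, with 332 genes. Of these, 188 carry Zfp names. A coding peak was listed in 61.7% of the 188 and in 28.5% of the other members, so this term largely repeats the zinc finger family. The p53 signaling pathway (57 genes) had the highest share of genes with a 5' UTR peak, 42.1%, against 25.0% of all genes with a pathway. Its coding share was 12.3%.

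GO terms gave a like picture over 11297 genes, which had a mean of 2.12 peaks. Of 590 terms with at least 30 genes, regulation of RNA splicing had the highest mean, 3.21 peaks over 38 genes, with a 5' UTR peak in 44.7% of them against 26.0% of all genes with a term. Cell-cell junction (83 genes) followed with 3.04. Homophilic cell adhesion (100 genes) came next with 3.01, a coding peak in 67.0% and a 3' UTR peak in 50.0%, and it contains the protocadherins. Chromatin organization (206 genes, mean 2.72) and double-strand break repair (40 genes, mean 2.73) were also high. Cytokine activity (1.35), respirasome (1.44) and structural constituent of ribosome (1.45) had the lowest means. GO text was removed before use from 3203 peaks, so term sizes are incomplete.

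By chromosome, the X carried fewer marked genes than the autosomes. A peak was listed for 441 of 966 X-linked coding genes (45.7%, 42.5 to 48.8), against 12253 of 20665 autosomal ones (59.3%, 58.6 to 60.0). Without odorant, vomeronasal and trace amine receptors and beta-defensins, the shares were 46.0% (42.9 to 49.1) and 63.8% (63.1 to 64.5). At the stricter FDR they were 29.2% on the X and 44.0% on autosomes. Among single autosomes the share ran between 49.8% on chromosome 7 and 71.4% on chromosome 18, and without those families between 53.5% on chromosome 14 and 71.6% on chromosome 18. RNA levels of X-linked genes were not analysed here, and their part in this difference was not tested.

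The Y chromosome had 9 marked coding genes of 256 (3.52%). The paralogues Zfy1 and Zfy2, zinc finger factors of spermatogenesis, had 3' UTR peaks with folds of 12.4 and 31.5 and log10 FDR of -64.2 and -71.7. Kdm5d, a histone demethylase, had 2 peaks in the 3' UTR with folds of 5.44 and 31.5. Reads of the Zfy copies could have been split between them. Mitochondrial RNA had 10 peaks in 8 genes, 8 of them at the stricter FDR. The strongest lay in mt-Nd2 (fold 7.49, log10 FDR -220), mt-Nd6 (7.16, minus strand) and mt-Nd5 (7.08), subunits of complex I. The mt-Nd6 peak overlaps the end of an mt-Nd5 peak on the other strand.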

How the data were processed

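The authors' peak list of wild-type testis was used, with 1 row per peak, and no values per library were used here. The build was GRCm38, per the submitters' processing notes, which also name HISAT2, StringTie, HOMER, fastp and FastQC. The peak caller, the roles and versions of these tools, and whether replicates were pooled are not given in the sources used here. The deposited fold enrichment was read as a ratio of IP over input, per the name of the list and the sample description. The deposited log10 values of p and FDR were handled as a score, since 1201 of the FDR values run off the scale. The highest FDR listed was 0.406. Deposited peak lengths are 1 base too long because starts count from 0, and spans were recomputed.

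Shares, medians and Wilson 95% intervals were computed with Python, pandas and scipy. The counting code was tested on simulated data. Symbols were matched to RefSeq (GRCm38.p6) for 14943 of 16358 (91.3%). Genes of the 21 lists and 22 families and the comparisons were chosen with earlier results of these data known. Named genes were Alkbh5, the 10 genes with the most peaks and the 10 with the highest fold, for each class the 5 of either kind, the 5 longest spans, up to 4 members per list and up to 3 clone-type names. Some genes met by that rule are not reported here. Members without a peak and other members outside that rule, among them the genes of the start windows, microRNAs, Y and mitochondrial genes, were named after their values were seen. The planned fits of IP against input per library could not be run. Depth per library is unknown, so no statement on precision beyond counting error can be made.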

Additional observations from a re-analysis of the deposited data

How the results depend on the processing

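Of 193 values recomputed under alternatives, 94 stayed within the interval of the value as reported, or for a count within a factor of 1.5, and 99 moved outside it. No value rests on a test. With an FDR at or below 0.05, the 3' UTR share was 51.5%, the median 3' UTR span 419 bases, genes with 2 or more peaks 48.9%, genes with more than 1 class 33.3%, coding genes with a peak 54.3% and X-linked genes with a peak 41.2%. With an FDR at or below 1e-05, these were 58.6%, 599 bases, 36.8%, 24.4%, 42.9% and 29.2%, and the median 3' UTR fold was 6.79. With a fold of 2 or more, 49.8% of genes had 2 or more peaks and 55.8% of coding genes a peak. Without clone-type names, the 3' UTR share was 57.3% and genes with 2 or more peaks 56.8%. Without peaks that overlap the opposite strand, the 3' UTR share was 49.8%. With peaks within 200 bases merged, 44.7% of genes had 2 or more. Chosen after seeing the data, leaving out repeated peaks gave 50.9% of genes with 2 or more, and leaving out receptor and defensin families gave 62.2% of coding genes with a peak. The cause of these moves was not tested. No paired analysis was possible because the list holds no values per library, and leaving out each replicate in turn was not run for the same reason. Counts of peaks depend on depth, which is unknown here.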
